A study of Mus musculus with 38 samples.

Results

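The genes described here are 8 genes of the innate immune response to nucleic acid, taken by name from a fixed list out of the 55298 genes in the count table: Ddx58 (the cytosolic RNA sensor RIG-I), Ifih1 (the cytosolic RNA sensor MDA5), Tlr3 (the endosomal receptor for double-stranded RNA), Zbp1 (the sensor of Z-form nucleic acid), Eif2ak2 (the kinase PKR), Adar (the RNA editor ADAR1), Mavs (the adaptor of RIG-I and MDA5) and Irf3 (the transcription factor that this signalling activates). Each was compared between Trim28-KO and control in 5 bulk RNA-seq experiments, beside the change of MMERVK10C-int, the internal part of an endogenous retrovirus (ERV) subfamily that Trim28 represses, and then in single nuclei of the cortex.

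Cells detect viral RNA by its double-stranded form or by the chemistry of its end. RIG-I and MDA5 bind such RNA in the cytosol and signal through Mavs, TLR3 binds it in the endosome, and both routes lead to Irf3 and to type I interferon, while PKR halts translation and ADAR1 edits double-stranded RNA so that the cell's own transcripts do not set off the sensors. Several of these sensors are themselves induced by interferon, and ERV transcripts are one source of RNA within the cell that these sensors can bind.

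The bulk data comprised 32 libraries. Neural progenitor cells (NPCs) were cultured from embryonic day 13.5 forebrain of Rosa26-Cas9 knock-in mice and received a lentivirus with H2B-RFP and a guide RNA against Trim28 (6 KO libraries, 2 for each of 3 guides) or against lacZ (2 control libraries), and RFP+ cells were sorted after 10 days. Adult Cas9-GFP mice received AAV guide RNA with H2B-RFP under the neuronal synapsin promoter, and Stop-Cas9-GFP mice received AAV guide RNA with AAV Cre (4 KO animals and 1 lacZ animal in each line, with 1 KO animal for each guide and 1 for all 3 guides together). The design text names AAV Cre for both lines. Trim28-flox animals, given as +/- and +/+, received AAV Cre in the forebrain (4 libraries labelled KO and 4 labelled control). RNA of these adult experiments came from nuclei sorted 2 months after injection. The last experiment used cortex at 3 months from Emx1-Cre (+/-), Trim28-fl (+/+) animals (3 KO) and Emx1-Cre (+/-), Trim28-fl (+/-) animals (3 control), so these controls carried Cre and 1 excised Trim28 allele. Emx1-Cre acts in progenitors of the dorsal forebrain, so microglia and interneurons of this cortex do not derive from Cre-expressing cells. Single nuclei came from 2 KO and 2 control animals whose numbers in the labels are those of 4 animals of the bulk cortex experiment.

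Guide RNA sequences are shown because the knockouts in 3 of the 5 experiments rest on them. Each matched the reverse strand of Trim28 on chromosome 7 of GRCm38.p6, in exon 3 (chr7:13025675-13025697), exon 4 (chr7:13027726-13027748) and exon 13 (chr7:13029921-13029943) of 17 exons, and capitals mark the PAM.
g3: gcactccacacaatagctagTGG
g4: ggtccttgtgagcgttgagcTGG
g13: cgcactggttacacatgaccAGG

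Ddx58, Ifih1 and Eif2ak2 hold in their promoter windows the core of the interferon-stimulated response element, searched as GAAANNGAAA on both strands. RefSeq promoter windows of GRCm38.p6 (250 bases before to 50 after a start) were found for 7 of the 8 genes. The motif was present in 3 of these 7 (42.9%), in 8 of 15 matched interferon-stimulated genes (53.3%) and in 1079 of 27025 genes overall (3.99%). It lay 33, 3 and 19 bases downstream of the start of Ifih1, Ddx58 and Eif2ak2, at chr2:62646206-62646233, chr4:40239804-40239833 and chr17:78882535-78882564. All 3 genes are on the reverse strand, and the sequences are written along the gene with the motif, or its reverse complement in Ddx58, in capitals.
Ifih1: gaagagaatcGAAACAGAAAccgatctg
Ddx58: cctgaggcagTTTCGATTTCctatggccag
Eif2ak2: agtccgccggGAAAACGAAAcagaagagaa
The windows of Adar, Mavs, Irf3 and Tlr3 did not hold these letters, and none was matched for Zbp1.

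Trim28 itself was measured first as a check of the labels, in CPM, counts scaled to a normalised library size of 1000000. It was at 157 and 204 CPM in the NPC controls and between 36.8 and 73.6 CPM in the 6 KO libraries, and at 19.0 to 21.4 CPM in cortex controls against 6.08 to 8.88 CPM in KO. These groups did not overlap, and Trim28 fell by 1.82 on the log2 scale in NPCs (SE 0.253, adjusted p = 0.0310) and by 1.39 in the cortex (SE 0.150, adjusted p = 3.78e-04). In sorted nuclei it was not called in the Cas9-GFP line (142.9 CPM in the control, 93.8 to 105.4 in KO) or in the Stop-Cas9-GFP line (105.5 CPM in the control, 88.5 to 126.7 in KO). In the Trim28-flox experiment it went against the labels. Libraries labelled KO held 130.6 to 146.3 CPM and libraries labelled control 25.6 to 31.6 CPM (log2 difference 2.26, SE 0.102, adjusted p = 2.74e-06), so the groups of that experiment are named below only by their labels. The library totals ranged from 8790346 to 25345083 counts. Nothing in the labels states whether the 2 NPC cultures of a guide were separate isolations, so the p-values for NPCs measure the spread between these libraries.

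MMERVK10C-int rose in the NPCs and in the cortex. Its level, in CPM of all subfamily counts, was 477 and 746 in the NPC controls and 6826 to 12020 in KO (median 9002), and the cortex controls at 1720 to 1952 were likewise far below the KO animals at 13363 to 13923. The log2 fold change was 3.88 in NPCs (SE 0.279, 95% interval 3.26 to 4.51, adjusted p = 3.01e-05, 14.8-fold) and 2.90 in the cortex (SE 0.0606, 95% interval 2.77 to 3.04, adjusted p = 1.60e-11, 7.48-fold). In all, 8 of 800 subfamilies were called in NPCs (1.00%) and 29 of 739 in the cortex (3.92%), where called means a log2 fold change beyond 0.5 with an adjusted p under 0.05. In the other experiments edgeR called none of 970, 978 and 885 subfamilies (0%), with 96, 28 and 26 at an unadjusted p under 0.05 in the Cas9-GFP, Stop-Cas9-GFP and Trim28-flox nuclei. MMERVK10C-int differed there by 0.44 (SE 0.126, adjusted p = 0.255), 0.44 (SE 0.150, adjusted p = 0.999) and 0.00 (SE 0.147, adjusted p = 1.0). The 95% intervals were 0.17 to 0.71, 0.11 to 0.77 and -0.32 to 0.33. Those of the Cas9-GFP and Stop-Cas9-GFP nuclei thus lay above 0, each against 1 control animal. The Cas9-GFP difference was called, at 0.76 with adjusted p = 0.0184, when the library sizes of genes were used.

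None of the 8 sensor genes was called in any of the 5 bulk experiments. By edgeR, 0 of 7 tested members were called in NPCs, where 0.194% of all genes tested were called, 0 of 8 in the Cas9-GFP nuclei (0% of all genes), 0 of 8 in the Stop-Cas9-GFP nuclei (0%), 0 of 6 in the Trim28-flox nuclei (0.0409%) and 0 of 7 in the cortex (1.33%). At an unadjusted p under 0.05 there was 1 member in the Stop-Cas9-GFP nuclei (Tlr3) and 1 in the cortex (Ifih1) by edgeR, and 1 in the Cas9-GFP nuclei and 1 in the cortex (Ifih1 in both) by DESeq2, which also called none. Members left out for low counts were Zbp1 in NPCs and in the cortex, and Ifih1 and Tlr3 in the Trim28-flox nuclei. With so few genes called in any experiment, 0 called members is close to the background share.

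**Figure D1:**
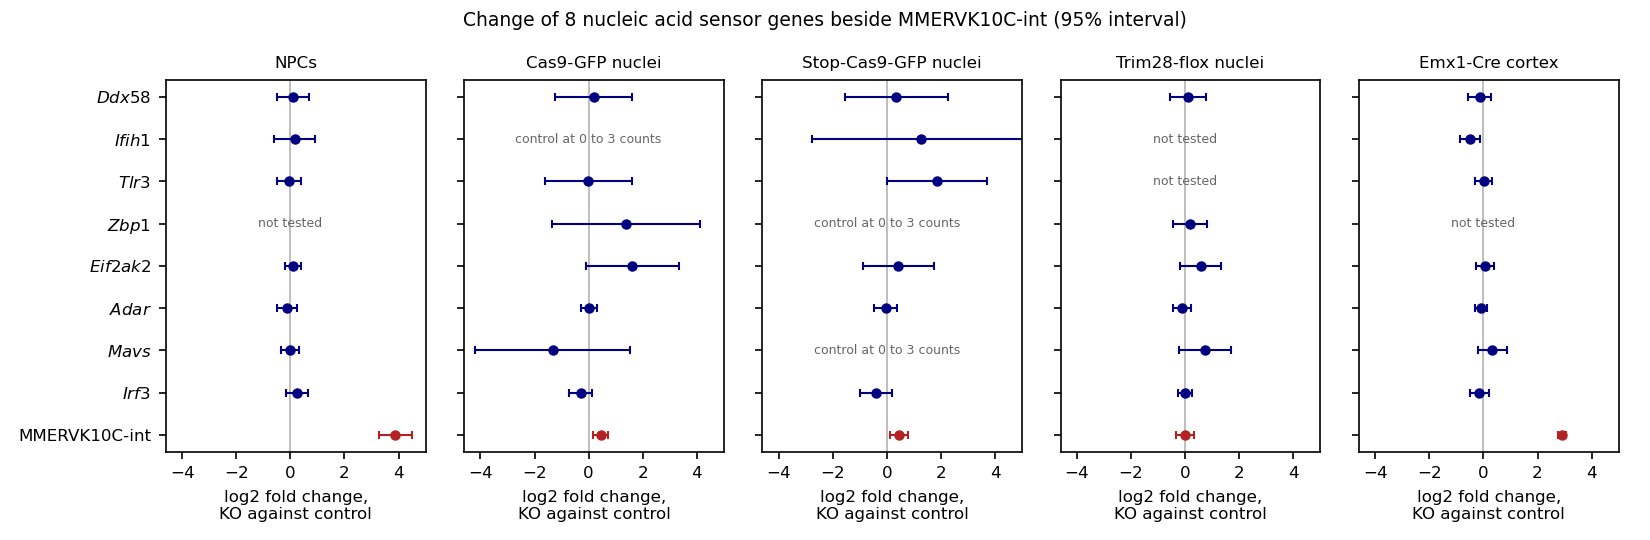
Log2 fold change of KO against control with its 95% interval (horizontal axis) for the 8 sensor genes (blue) and MMERVK10C-int (red), 1 panel per experiment. Intervals of members cross 0 or stay below 1 in NPCs and cortex, where MMERVK10C-int stands at 3.88 and 2.90, and they are wide in the Cas9-GFP lines with 1 control animal. In the Trim28-flox panel KO and control are the labels, which the Trim28 level goes against. Genes with at most 3 counts in the control (Ifih1 in Cas9-GFP, Zbp1 and Mavs in Stop-Cas9-GFP) are marked in words and not drawn, and of the intervals drawn that of Ifih1 in the Stop-Cas9-GFP panel runs past the axis.

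The cytosolic sensors in NPCs were at like levels in both groups. Ddx58 was at 18.5 and 15.5 CPM in the controls and at 13.6 to 27.6 CPM in KO (median 17.2). The ranges overlapped, and the highest value was a single culture with guide 3. Its log2 fold change was 0.09 (SE 0.267, 95% interval -0.51 to 0.69). Ifih1 was lower in level, at 1.45 and 1.89 CPM in the controls and 1.39 to 2.83 CPM in KO (median 1.78). Its groups overlapped, with a log2 fold change of 0.17 (SE 0.337, 95% interval -0.59 to 0.93). Tlr3, the endosomal sensor, was at 19.1 CPM in both controls and 14.7 to 22.3 CPM in KO (median 18.6), with KO libraries on both sides of the controls (log2 fold change -0.03, SE 0.196). Zbp1, whose protein can trigger necroptosis, had 0 to 2 counts in each NPC library and was not tested.

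Among the effectors, Eif2ak2 was abundant in NPCs at 69.4 and 73.9 CPM in the controls and 68.7 to 88.3 CPM in KO (median 75.4), which overlapped (log2 fold change 0.10, SE 0.137, 95% interval -0.21 to 0.41). Adar was at 49.1 and 38.3 CPM in the controls and 32.5 to 43.2 CPM in KO (median 41.4), with a log2 fold change of -0.14 (SE 0.163). The adaptor Mavs was at 29.1 and 30.2 CPM in the controls and 25.4 to 34.8 CPM in KO (median 29.4), a log2 fold change of -0.00 (SE 0.151). Irf3 was at 18.1 and 19.4 CPM in the controls and 18.3 to 27.7 CPM in KO (median 21.5). All but the lowest KO culture were above both Irf3 controls, yet the log2 fold change of 0.25 had a SE of 0.181 (95% interval -0.16 to 0.66). The upper 95% bounds of all 7 tested members lay below a log2 change of 1, a doubling, and below the lower bound of 3.26 for MMERVK10C-int in the same cultures. Their median log2 fold change was 0.09, against 0.0095 over all genes tested.

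In the cortex, Ifih1 had the lowest unadjusted p of the members. It was at 6.24, 7.29 and 9.11 CPM in the controls and at 5.91, 5.38 and 4.68 CPM in the KO animals. All 3 KO animals were below all 3 controls, by a narrow gap between the nearest animals. The share of all genes separated in this way was not computed. The log2 fold change was -0.49 (SE 0.176, 95% interval -0.88 to -0.11, unadjusted p = 0.0157, adjusted p = 0.329), so it was not called. Without control animal 77, the highest of the controls, it was -0.34 with an unadjusted p of 0.0813, and the adjusted p over all alternatives ranged from 0.104 to 0.770.

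The other cortex members overlapped between groups. Ddx58 was at 3.34, 3.37 and 4.93 CPM in the controls and 3.69, 3.57 and 3.33 CPM in KO (log2 fold change -0.13, SE 0.195). Tlr3 was at 17.5, 16.2 and 23.4 CPM in the controls and 18.1, 21.0 and 18.6 CPM in KO (0.02, SE 0.143), and Zbp1 had 1 to 5 counts in each library. No group stood apart for these genes. Eif2ak2 was at 10.6, 11.1 and 13.2 CPM in the controls and 10.9, 14.3 and 11.1 CPM in KO (0.06, SE 0.150). Adar was at 87.1, 77.4 and 83.4 CPM in the controls and 71.0, 74.2 and 87.6 CPM in KO (-0.09, SE 0.101). For Mavs the values were 4.25, 3.05 and 2.22 CPM in the controls and 3.01, 4.45 and 4.76 CPM in KO (0.33, SE 0.250). Mavs had the widest interval of the cortex members, reaching 0.88. Irf3 was at 3.88, 3.75 and 3.69 CPM in the controls and 3.07, 3.77 and 3.33 CPM in KO (-0.15, SE 0.167). As in NPCs, the upper bounds of all 7 members were below a doubling and below the lower bound of 2.77 for MMERVK10C-int, and their median was -0.09 against 0.0071 over all genes. Summed over 6 microglia markers, the cortex held 256.7 to 326.4 CPM in the controls and 255.7 to 323.5 CPM in KO. Astrocyte sums (4490 to 5283 against 4563 to 5007 in KO) and neuron sums (7814 to 8181 against 6654 to 7960) overlapped too. Oligodendrocyte marker sums were lower in all KO animals, at 1694 to 1903 against 2113 to 2281 CPM, as were endothelial sums, at 83.6 to 103.7 against 107.2 to 118.8 CPM. Neural progenitor sums were higher, at 75.1 to 88.96 against 68.6 to 73.5 CPM. Within that list Sox2 was higher but Pax6 lower in all KO animals. No marker was at 0 in either group, and the part of these shifts in the lower Ifih1 level was not tested. In such bulk samples fewer cells of a type and less RNA per cell cannot be told apart.

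**Figure D2:**
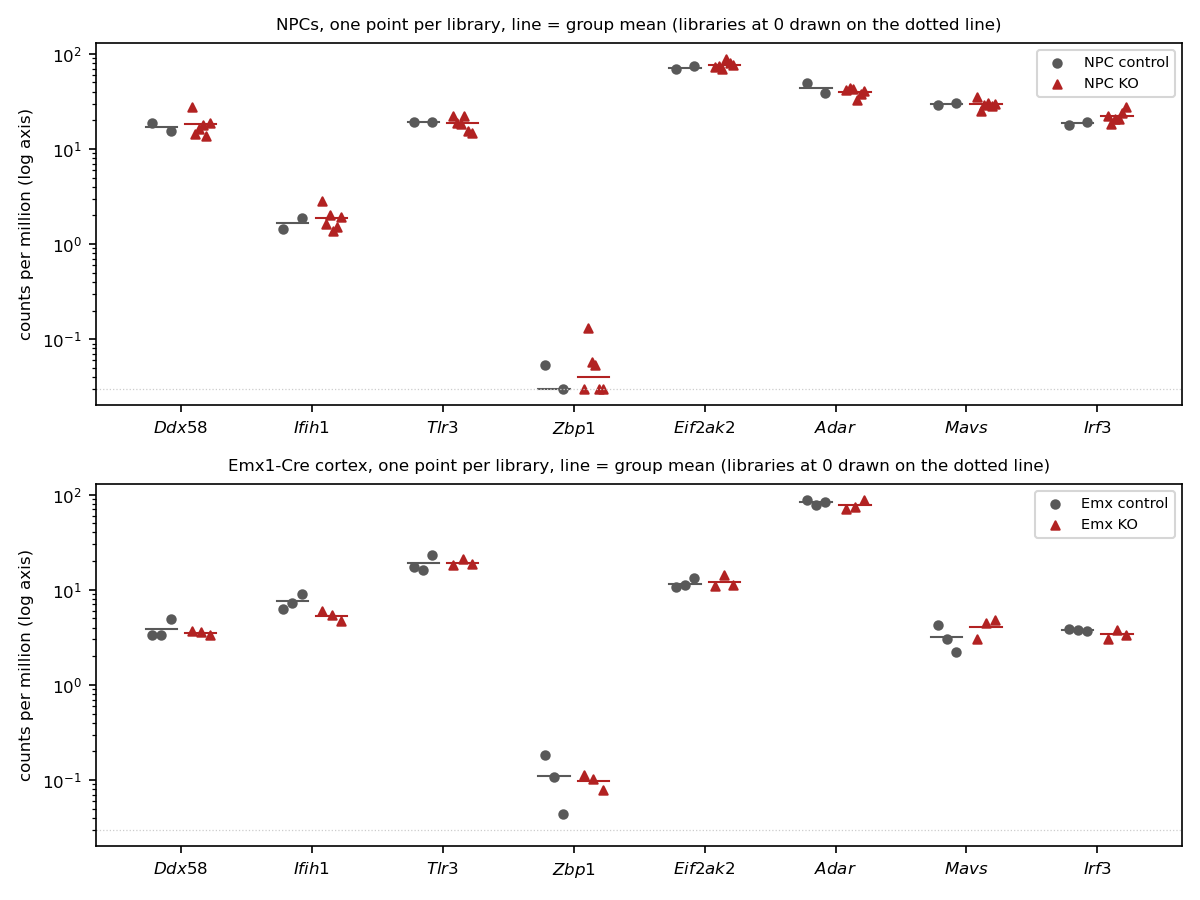
CPM on a log axis for each sensor gene in each library of the NPC (top) and cortex (bottom) experiments, with controls as grey circles, KO as red triangles and lines at group means. Groups overlap for all members except Ifih1 in the cortex, where KO animals span 4.68 to 5.91 and controls 6.24 to 9.11.

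Adult sorted nuclei gave low counts for most of the sensors. In the Cas9-GFP line Eif2ak2 was at 1.87 CPM in the control animal and at 7.10 (guide 3), 3.63 (guide 4), 10.2 (guide 13) and 2.20 (3 guides together) CPM in the KO animals. All 4 KO animals were above the control, 1 of them narrowly. The log2 fold change was 1.62 (SE 0.794, 95% interval -0.09 to 3.33, edgeR adjusted p = 0.629). With 1 control, KO animals all on 1 side of it were frequent among the pathway and marker genes of both Cas9 lines, in both directions. The share over all genes was not computed, so such an order is not read as a change. Ifih1 had 0 counts in the control and 25, 18, 2 and 0 counts in the KO animals in the same order of guides, at least 3.35-fold higher when the control is set to 3 counts. The animals with guide 13 and with 3 guides together were thus close to the control. Irf3 was at 59.1 CPM in the control and 41.98, 53.6, 51.6 and 45.3 CPM in KO, all below it (log2 fold change -0.30, SE 0.203). Mavs was at 2.55 CPM in the control and 0 to 2.08 CPM in KO (-1.33, SE 1.33), again all below, on 0 to 26 counts per animal. Adar was at 326.8 CPM in the control and 304.8 to 355.3 CPM in KO (0.01, SE 0.141), the narrowest interval of the line. Ddx58 (0.19, SE 0.661), Tlr3 (-0.01, SE 0.743) and Zbp1 (1.38, SE 1.28) overlapped with the control.

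In the Stop-Cas9-GFP line the member with the lowest unadjusted p was Tlr3, at 0.903 CPM in the control and 2.56 (guide 3), 3.79 (guide 4), 3.06 (guide 13) and 3.92 (3 guides together) CPM in KO. All 4 KO animals were above the control, on 8 counts in the control and 28 to 45 counts in KO (log2 fold change 1.87, SE 0.877, unadjusted p = 0.0478, adjusted p = 1.0). In the Cas9-GFP line KO animals lay on both sides of the control for Tlr3. Irf3 was at 47.5 CPM in the control and 37.9, 45.8, 29.2 and 32.7 CPM in KO, all below it (-0.39, SE 0.280). Eif2ak2 was at 3.84 CPM in the control and 3.22 to 7.92 CPM in KO (0.42, SE 0.623), Adar at 312.3 CPM in the control and 267.9 to 337.4 CPM in KO (-0.05, SE 0.206), and Ddx58 at 1.92 CPM in the control and 1.16 to 3.47 CPM in KO (0.35, SE 0.908). All 3 overlapped. Fitted differences were larger for Mavs (3.34, SE 2.44) and Zbp1 (2.80, SE 2.80), which had 1 count each in the control and 0 to 24 and 0 to 20 counts in the KO animals, with the guide 3 animal at 0 for both. Ifih1 had 4 counts in the control and 3 to 27 in KO (1.25, SE 1.91). These 3 rest on too few control counts for a usable fold. When both lines were put in 1 fit, which gives 2 controls, no member was called (Eif2ak2 0.94, SE 0.533, adjusted p = 0.841).

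Irf3 and Adar, the members with ample counts in the Trim28-flox nuclei, were at like levels in both labelled groups. Irf3 was at 73.03, 88.75, 70.9 and 80.8 CPM in libraries labelled KO and 84.0, 78.6, 66.1 and 84.2 CPM in libraries labelled control (log2 difference, labelled KO minus labelled control, 0.00, SE 0.114). Adar was at 286.8 to 428.2 CPM in libraries labelled KO and 313.0 to 459.5 CPM in libraries labelled control (-0.11, SE 0.152). The sensors were near the limit of these libraries. Ddx58 was at 1.33 to 2.78 CPM in libraries labelled KO and 1.67 to 2.15 CPM in those labelled control (0.09, SE 0.303), and Zbp1 at 1.59 to 2.06 and 1.03 to 1.87 CPM (0.17, SE 0.286). Eif2ak2 was at 2.17, 1.39, 2.36 and 1.66 CPM in libraries labelled KO and 1.06, 0.863, 1.10 and 2.10 CPM in those labelled control (0.57, SE 0.351). One library labelled control lay within the range labelled KO. Mavs had 12 to 20 counts in libraries labelled KO and 3 to 15 in those labelled control (0.74, SE 0.436, 95% interval -0.22 to 1.70), which also overlapped. Because Trim28 was lower in the libraries labelled control, these signs are those of the labels.

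Whether the effect of the knockout on a sensor differed between the 5 experiments was tested in 1 joint fit of all 32 libraries, in which the Trim28-flox groups entered as labelled, against their Trim28 level. It was called for 0 of 8 members and for 71 of 24697 genes (0.287%). Adjusted p of members ranged from 0.820 to 1.0, and the lowest unadjusted p was that of Ifih1 (0.0815). So the rise of MMERVK10C-int by 3.88 and 2.90 in 2 experiments and its smaller difference in the other 3 was not matched by a detectable difference in any member. No member was called with other normalisation factors, or without the lines that have a single control, where Ifih1 again had the lowest p (edgeR, unadjusted p = 0.0251, adjusted p = 0.679). Without the Trim28-flox experiment, a fit added after the data were seen, 0 of 8 members and 25 of 23984 genes (0.104%) were called by edgeR, and Tlr3 had the lowest p (unadjusted p = 0.0611, adjusted p = 0.805).

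Other genes of the pathway were not called in bulk either. From 5 lists of 77 genes in all (other RNA sensing, DNA sensing, signalling, interferon and its receptor, and interferon-stimulated genes), none of the 57 genes tested in NPCs was called by edgeR, nor of 55 in the Cas9-GFP nuclei, 52 in the Stop-Cas9-GFP nuclei, 44 in the Trim28-flox nuclei and 59 in the cortex. At an unadjusted p under 0.05 by edgeR there were 1, 5, 1, 2 and 6 of them. Over all genes tested, 0.194%, 0%, 0%, 0.0409% and 1.33% were called, in the same order. Those at an unadjusted p under 0.05 by edgeR were 752 of 16469, 1560 of 19004, 459 of 18777, 810 of 17102 and 1488 of 16271. The counts of pathway genes were thus near or below the background. The 22 interferon-stimulated genes, which report interferon signalling more directly than the sensors do, had 18 tested members in NPCs with a median log2 fold change of 0.16 (0.0095 over all genes) and 17 tested in the cortex with a median of -0.06 (0.0071 over all genes). The 7 tested genes of interferon and its receptor had a median of 0.17 in NPCs and 0.04 in the cortex. The largest list medians were those of interferon-stimulated genes in the nuclei of the Cas9-GFP line (-0.60) and the Stop-Cas9-GFP line (0.71), where 13 and 12 were tested against 1 control and the signs were opposite.

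Levels of the sensors differed between the materials. Between NPC and cortex controls 6 of the 8 members were called, where 51.6% of all genes tested were called, and between the Trim28-flox libraries labelled control and the cortex controls all 8 were called, against 62.8% of all genes. Culture, tissue and sorted nuclei differ in preparation as well as in cell type, and these cannot be told apart. Levels are given per length, as CPM per kilobase of exon, so that genes can be compared.

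In cortex controls Adar led at 14.1 ± 1.18 (SD, n = 3) CPM per kilobase, followed by Tlr3 at 5.07 ± 1.10 and Eif2ak2 at 3.15 ± 0.3999. Irf3 (1.52 ± 0.0641), Mavs (1.32 ± 0.436) and Ifih1 (1.28 ± 0.254) had overlapping ranges. Ddx58 was lower at 0.764 ± 0.189 and Zbp1 lowest at 0.0439 ± 0.0275. In NPC controls the order was another. Eif2ak2 led at 15.7 ± 0.945 CPM per kilobase (SD, n = 2), then Mavs at 9.94 ± 0.410, Irf3 at 6.10 ± 0.406 and Adar at 6.03 ± 0.960, these last 2 overlapping, then Tlr3 at 4.12 ± 0.0606 and Ddx58 at 2.70 ± 0.297. The 2 cytosolic RNA sensors went opposite ways between these materials. Ddx58 was higher in NPC than in cortex controls by 1.82 on the log2 scale (SE 0.334, adjusted p = 2.69e-05) and Ifih1 was lower, at -2.47 (SE 0.803, adjusted p = 0.0101). Eif2ak2 (2.32, SE 0.347), Mavs (2.91, SE 0.563) and Irf3 (2.00, SE 0.190) were higher in NPCs and Adar was lower (-1.23, SE 0.181), whereas the log2 differences of Tlr3 (-0.30, SE 0.376) and Zbp1 (-2.18, SE 1.40) were not called.

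In the Trim28-flox nuclei labelled control, neuron markers summed to 1581 to 1829 CPM and astrocyte markers to 24.1 to 56.4 CPM. They held Adar at 44.2 ± 7.92 and Irf3 at 20.0 ± 2.06 CPM per kilobase (SD, n = 4) and the other 6 members at 0.410 or less. Against cortex controls their log2 differences were 1.64 for Adar (SE 0.151), 3.71 for Irf3 (SE 0.181) and 3.13 for Zbp1 (SE 0.816). The differences were -1.68 for Ddx58 (SE 0.297), -6.63 for Ifih1 (SE 0.8004), -6.30 for Tlr3 (SE 0.405), -3.84 for Eif2ak2 (SE 0.339) and -3.33 for Mavs (SE 0.561). The sensors Ddx58, Ifih1 and Tlr3, the kinase PKR and the adaptor were thus lower, and Zbp1, the editor and Irf3 higher, in these nuclei. Microglia markers summed to 69.6 to 80.2 CPM in them, but only 2 of the 6 markers had enough counts to be tested in this experiment.

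**Figure D3:**
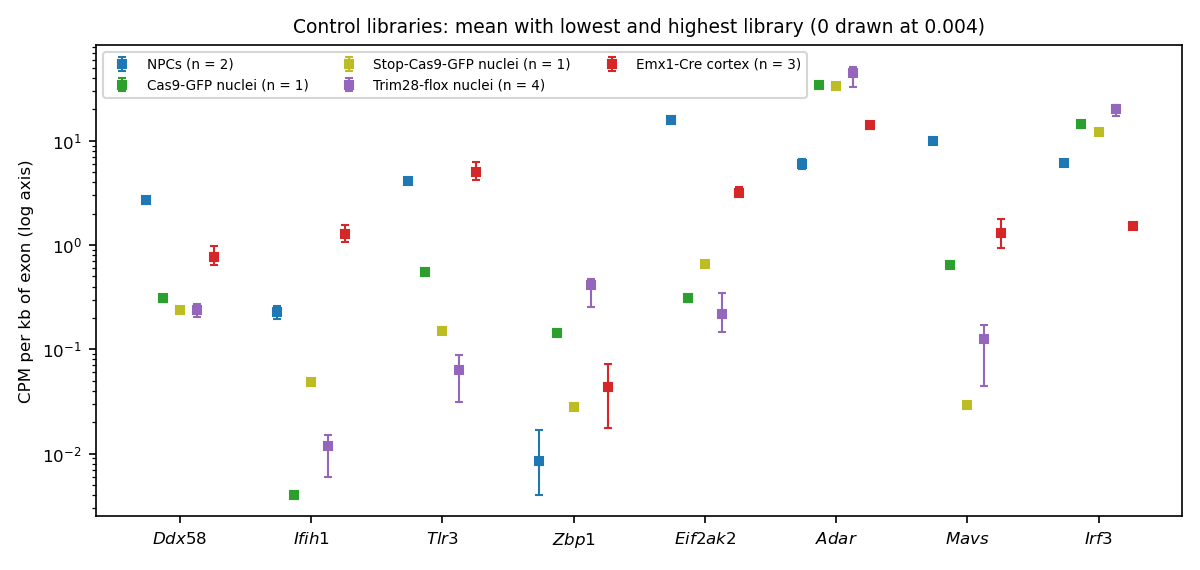
Level of each sensor gene in the control libraries of the 5 experiments, as CPM per kilobase of exon on a log axis. Squares are means and bars reach the lowest and highest library. For Trim28-flox these are the libraries labelled control, a label which the Trim28 level goes against. Adar and Irf3 are highest in sorted nuclei, Eif2ak2, Mavs and Ddx58 in NPCs, and Ifih1 in cortex. Tlr3 is higher in cortex and NPCs than in sorted nuclei, and its difference between cortex and NPCs was not called.

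The genes whose levels went most closely with each member across the 32 libraries, after the mean of each experiment was subtracted, were Cux2 for Ddx58 (Pearson's r 0.772), Gm29100 for Ifih1 (0.834), Suclg2 for Mavs (0.867), Nr2f1 for Tlr3 (0.791), Gm45517 for Eif2ak2 (0.777), Gm26518 for Adar (0.837), Etfa for Zbp1 (0.806) and Tchp for Irf3 (0.703). The next were Zbtb4, Gm42928, Gm31326, Gm49122, Glra3, Ubr4, F830016B08Rik and Ccdc151 in the same order, at r between 0.651 and 0.837. No member was among the closest genes of another, and the highest r between members was 0.49, for Mavs and Zbp1. Libraries of an experiment share material and depth, so these values describe the data only.

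Single nuclei placed each sensor in a cell class of the cortex. After filtering, 3609 and 3590 nuclei of the KO animals and 3407 and 3065 of the controls remained, with medians of 8088 to 8839.5 UMIs. The animals shared between 0 and 20 cell barcodes per pair, doublets were not removed, and clusters were called "X-like" from marker genes, with the threshold for a name set after the clusters were seen. The classes were excitatory neuron-like (8097 nuclei), inhibitory neuron-like (1683), oligodendrocyte-like (1308), astrocyte-like (1185), microglia-like (691), oligodendrocyte progenitor-like (453) and leptomeningeal fibroblast-like (130), and 124 nuclei in 2 clusters were left unnamed. Microglia-like nuclei had medians of 1570 to 1969 UMIs, against 10461.5 to 11842.5 in excitatory neuron-like nuclei, and levels are CPM relative to all UMIs of the class in an animal.

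Tlr3 was highest in microglia-like and astrocyte-like nuclei. Over the 4 animals it averaged 84.7 ± 8.82 CPM (SD, n = 4) in microglia-like and 74.8 ± 3.74 in astrocyte-like nuclei, whose ranges overlapped. The other glial classes were far lower, with oligodendrocyte-like nuclei at 3.13 ± 1.71 and oligodendrocyte progenitor-like nuclei at 3.51 ± 3.30, and leptomeningeal fibroblast-like nuclei held 3 UMIs in all. In excitatory neuron-like nuclei it was at 0.382 ± 0.203 and in inhibitory neuron-like nuclei at 0.777 ± 0.601. Mavs was in all glial classes, from 29.8 ± 6.09 in microglia-like and 21.1 ± 4.96 in astrocyte-like nuclei to 13.9 ± 2.40 in oligodendrocyte-like and 13.8 ± 2.78 in oligodendrocyte progenitor-like nuclei, against 0.874 ± 0.184 and 0.514 ± 0.0486 in the excitatory and inhibitory classes. The cytosolic sensors were highest in microglia-like and leptomeningeal fibroblast-like nuclei, with Ddx58 at 42.6 ± 9.44 and 48.2 ± 13.3 and Ifih1 at 27.2 ± 4.03 and 34.8 ± 26.8. The leptomeningeal values rest on only 20 UMIs of Ddx58 and 17 of Ifih1 in 130 nuclei, with Ifih1 at 0 in control 64. Ddx58 was also clear in oligodendrocyte progenitor-like nuclei (27.9 ± 6.04), and Ifih1 was at 3.64 ± 1.00 or less in the other classes. Nuclei with at least 1 Ddx58 UMI were 7.24% of the microglia-like and 9.05% of the oligodendrocyte progenitor-like class. In the excitatory neuron-like class, with more UMIs per nucleus, they were 4.52%.

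Eif2ak2 was highest in microglia-like nuclei at 70.7 ± 14.2 CPM, then in leptomeningeal fibroblast-like nuclei at 44.3 ± 30.7 on 18 UMIs, a range that overlapped with both neighbours, and in astrocyte-like nuclei at 27.2 ± 9.05. It was at 10.2 ± 2.47 in oligodendrocyte progenitor-like, 4.04 ± 2.28 in inhibitory neuron-like and 2.09 ± 0.913 in excitatory neuron-like nuclei. Adar ran the other way, at 124.7 ± 11.9 and 106.5 ± 14.5 in inhibitory and excitatory neuron-like nuclei and at 34.6 ± 11.8 in microglia-like and 31.9 ± 9.59 in oligodendrocyte-like nuclei. The neuronal and microglia-like ranges of Adar did not overlap. Irf3 was in every class, from 21.3 ± 3.52 CPM in excitatory neuron-like to 82.9 ± 12.2 CPM in microglia-like nuclei. That order holds for CPM only. Nuclei with at least 1 Irf3 UMI were 22% of the excitatory neuron-like and 14.9% of the microglia-like class, whose nuclei held fewer UMIs. Zbp1 had 3 UMIs in all microglia-like nuclei and 3 in all excitatory neuron-like nuclei, and was at 0 in the astrocyte-like, inhibitory neuron-like and oligodendrocyte-like classes.

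**Figure D4:**
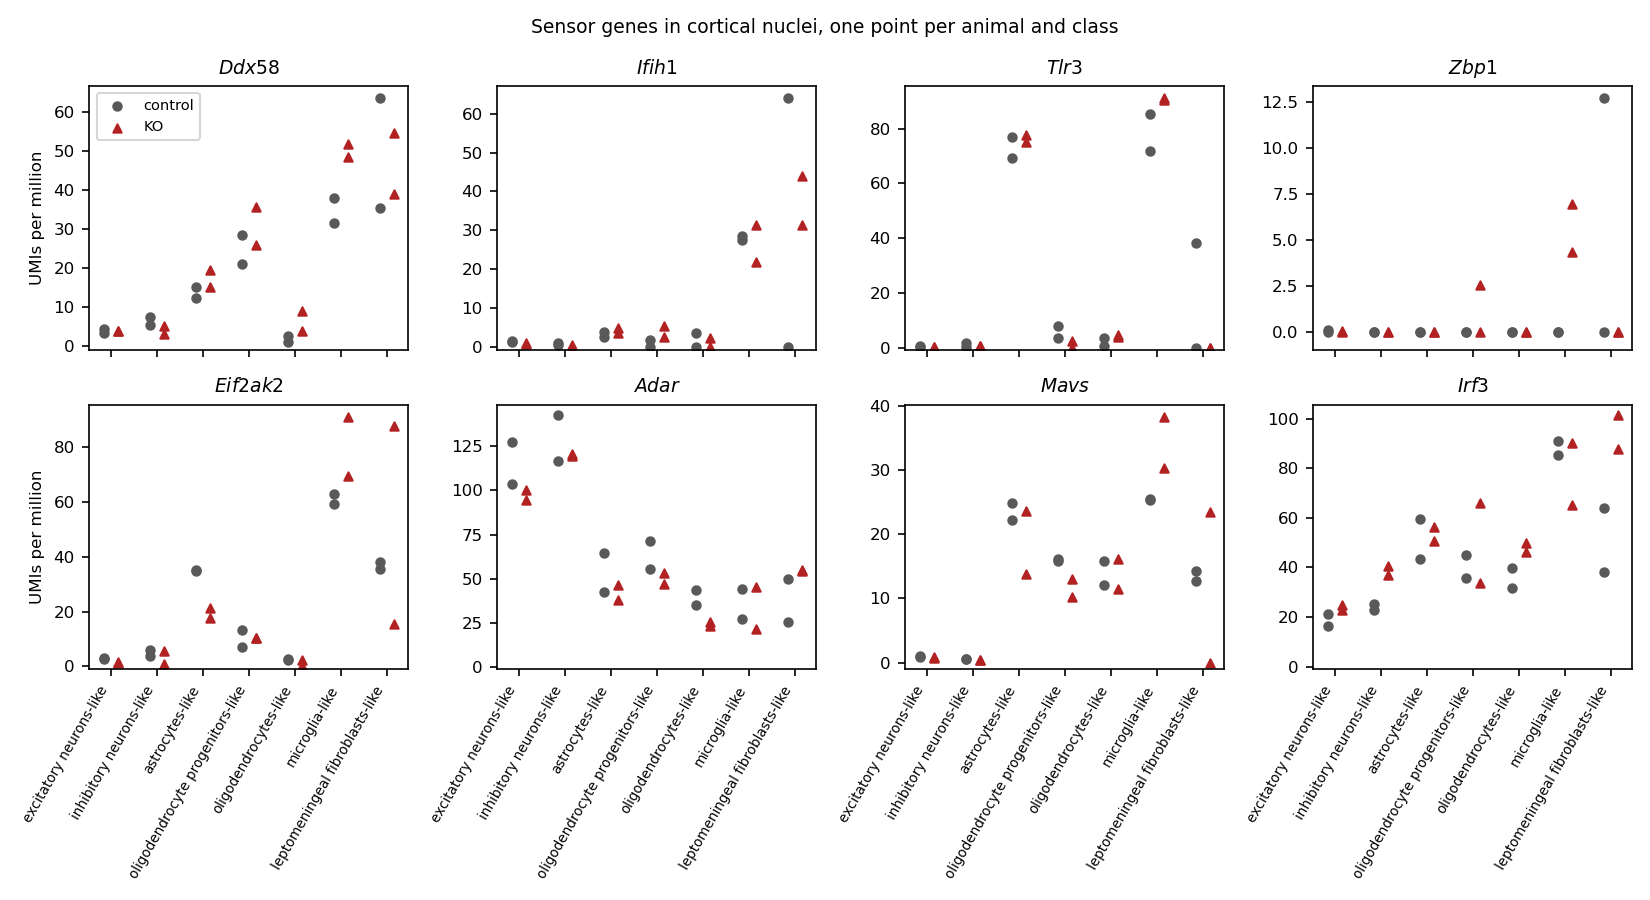
CPM (UMIs of the gene relative to all UMIs of a class) of each sensor gene by class of cortical nuclei, 1 point per animal (grey circles, control; red triangles, KO). Ddx58, Ifih1, Tlr3, Mavs and Eif2ak2 are at most 7.62 in neuronal classes and highest in glial or leptomeningeal classes, and Adar is highest in the neuronal classes.

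Between KO and control animals, 27 pairs of member and class could be tested, and 1 was called. That was Eif2ak2 in excitatory neuron-like nuclei, 1 of 6 members tested in a class where 7.67% of all genes were called. It was at 1.22 and 1.42 CPM in the KO animals (32 and 37 UMIs) and 2.57 and 3.13 in the controls (57 and 71 UMIs). Both KO animals were below both controls. With 2 animals against 2, such an order arises often without any change. Its share over all genes was not computed, here or for the nuclei below. Eif2ak2 fell by 1.15 on the log2 scale (SE 0.271, adjusted p = 0.0421). The adjusted p was 0.0646 with DESeq2, 0.421 and 0.423 when KO animal 60 or 73 was left out, which leaves 1 KO animal, and 0.00222 and 0.0383 when control 64 or 65 was left out. Split by cluster, which was added after the data were seen, the 2 largest excitatory clusters each had KO values below both controls. These were 0.921 and 1.45 against 1.92 and 3.15 in the largest and 1.45 and 1.65 against 4.04 and 3.66 in the next. In the third largest the groups overlapped, at 0.652 and 0 against 1.02 and 0.342 on 0 to 3 UMIs per animal. In the 2 smallest KO was below both controls, on 0 to 8 UMIs per animal.

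These Eif2ak2 levels in excitatory neuron-like nuclei were close to that in oligodendrocyte-like nuclei (1.81 ± 1.23). Markers of other cells summed in the same excitatory nuclei to 59.3 and 58.8 in KO against 69.4 and 50.04 in controls for microglia, and to 444 and 459 against 438 and 506 for astrocytes. For oligodendrocyte markers the sums were 119 and 101 against 96.4 and 90.5, so none of the 3 sums was lower in both KO animals than in both controls. The part of free RNA in these low levels was not tested. Trim28 was at 6.34 and 6.70 in KO and 8.56 and 6.96 in control excitatory nuclei (log2 fold change -0.30, SE 0.177, not called), and the 3' tags need not cover the excised part, so this is no check of the labels. In the bulk cortex of the same experiment the log2 fold change of Eif2ak2 was 0.06.

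Eif2ak2 was tested in 3 more classes. In astrocyte-like nuclei it was at 21.2 and 17.7 CPM in KO and 35.1 and 34.8 in controls. Both KO animals were lower, but the log2 fold change of -0.84 (SE 0.280, unadjusted p = 0.0108) had an adjusted p of 0.176 by edgeR. In microglia-like nuclei, where its level was highest, it was at 69.5 and 91.0 in KO and 59.3 and 63.1 in controls (log2 fold change 0.34, SE 0.354, adjusted p = 0.898), with both KO animals above. In inhibitory neuron-like nuclei it was at 0.973 and 5.53 in KO (4 and 24 UMIs) and 3.67 and 6.00 in controls (13 and 22 UMIs), which overlapped (log2 fold change -0.57, SE 0.598, adjusted p = 0.692). Whether the change of Eif2ak2 differed between the classes was not tested.

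Of the remaining members, Irf3 in inhibitory neuron-like nuclei was at 37.0 and 40.6 CPM in KO and 25.1 and 22.9 in controls. The groups did not overlap, and the log2 fold change was 0.67 (SE 0.170, adjusted p = 0.168), in a class where edgeR called 0 of 12690 genes (0%), with 1840 at an unadjusted p under 0.05. Without control 64 or 65 it was called, at 0.73 (adjusted p = 0.00131) and 0.63 (adjusted p = 0.02996), where the lone control is assumed to vary like the KO animals. Without KO animal 60 or 73 it was not called by edgeR (adjusted p = 0.520 and 0.750). Ifih1 in excitatory neuron-like nuclei was at 0.649 and 0.809 in KO and 1.22 and 1.41 in controls (log2 fold change -0.89, SE 0.326, adjusted p = 0.123). It too lay below both controls, as Ifih1 of the bulk cortex did in animals with the same numbers, which makes the 2 measurements not independent.

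No member was called in the other classes. The shares of all genes called were 2.09% in astrocyte-like (0 of 6 members, 1 at an unadjusted p under 0.05), 0% in microglia-like (0 of 5 members, and 430 of 6087 genes at an unadjusted p under 0.05), 0.299% in oligodendrocyte progenitor-like (0 of 3) and 2.97% in oligodendrocyte-like nuclei (0 of 3). In microglia-like nuclei the members were Ddx58 (log2 fold change 0.46, SE 0.420), Tlr3 (0.18, SE 0.319), Eif2ak2, Adar (-0.05, SE 0.506) and Irf3 (-0.21, SE 0.328). With 122 to 229 such nuclei per animal, their 95% intervals reached as far as 1.36 for Ddx58 and 1.10 for Eif2ak2. A doubling of either, and of Adar with its larger SE, lay within the interval at this depth. DESeq2 called no member in any class and had 2 of 45 pairs at an unadjusted p under 0.05.

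Pathway genes beside the members were called in excitatory neuron-like nuclei only for 2 of 45 tested genes, both higher in KO. This share was below that over all genes of the class (1246 of 16235, 7.67%). Ifnar2, a chain of the type I interferon receptor, was at 20.3 and 17.4 CPM in KO and 10.4 and 9.78 in controls (log2 fold change 0.86, SE 0.143, adjusted p = 0.0164). Samhd1, a nuclease that depletes nucleotides, was at 19.7 and 18.6 in KO and 13.1 and 12.3 in controls (0.55, SE 0.129, adjusted p = 0.0430). The groups did not overlap for either gene, nor for the called markers named below. In bulk cortex neither Ifnar2 (0.38, SE 0.191) nor Samhd1 (-0.10, SE 0.141) was called. The 45 genes had a median of -0.09, against 0.0092 over all genes. In microglia-like nuclei 34 pathway genes were tested, 0 were called by edgeR and 4 had an unadjusted p under 0.05, with a median log2 fold change of 0.21 against -0.0067 over all genes. Markers called in these classes included Mbp (1.03) and Syt1 (-0.53) in excitatory neuron-like and Slc1a3 (-0.51) and Pax6 (-0.91) in astrocyte-like nuclei. Oligodendrocyte-like nuclei were 6.46% and 4.54% of nuclei in KO and 16.7% and 11.2% in controls, and the part of these shifts in the levels above was not tested.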

How the data were processed

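Bulk RNA-seq was poly-A selected, stranded and paired, and the authors aligned it with STAR 2.6.0 to GRCm38.p6 with GENCODE vM19. The authors deposited raw read counts per gene (featureCounts, Subread 1.6.3) and estimated counts per subfamily from TEtranscripts, which divides a read among the copies it matches and which arrive as whole numbers. For nuclei they deposited UMI counts from Cell Ranger 3.0. CUT&RUN was not used here. Groups came from the sample labels, and columns named flexcas were assigned to the Stop-Cas9-GFP animals by elimination.

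Each experiment was fitted alone in R 4.3.3 with edgeR 4.0.16 (filterByExpr, TMM, quasi-likelihood test, Benjamini-Hochberg adjustment over all genes), and a gene was called at a log2 fold change beyond 0.5 with an adjusted p under 0.05. The SE is the log2 fold change divided by the square root of F, intervals are at 95%, and a group at 0 was set to a floor of 3 counts. With 1 control animal the spread came from the KO animals. Floors cover counting error only. Nuclei within 3 median absolute deviations of log10 detected genes were clustered in Seurat 5.3.0 (2000 variable genes, 20 principal components, resolution 0.1), and UMIs were summed per animal and class with at least 50 nuclei per animal and tested in the same way. The fits were tested on simulated counts. Total depth was 8790346 to 25345083 counts per bulk library.

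The named genes were all members, Trim28, every called gene of the fixed lists (1 called marker is not reported here) and, for each member, the 2 genes with the highest correlation over the 32 libraries (log2 CPM, prior count 2). The members and lists were chosen with earlier results of these data known. NPC libraries carry 2 number series. Deviations of same-series libraries from group means correlated with r of 0.684, 0.706 and 0.688 for guides 3, 4 and 13 with the control. These numbers were therefore taken to pair the libraries in the replicate block, which was an alternative. The NPC estimates, intervals and shares of genes called in the Results came from the fit without this pairing. What a series stands for is not given in the sources used here. Alternatives were DESeq2 1.42.0, other factors, no filter, TEtranscripts gene counts, a replicate block, both Cas9 lines in 1 fit, leaving out each library and, for nuclei, leaving out the 5% with the most UMIs. No pair of libraries held identical values.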

Additional observations from a re-analysis of the deposited data

Results flagged for a closer look

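In groups of 4 to 10 libraries, 45 sets of values were examined for a single value far from the others, which chance gives in about 1 of 20, and 2 were found. Ddx58 was highest in 1 NPC KO culture with guide 3 at 27.6 CPM, against 18.5 CPM in the next of the 6 and 13.6 in the lowest. Zbp1 was lowest in 1 Trim28-flox library labelled control at 1.03 CPM, against 1.79 to 1.87 CPM in the other 3. Neither gene was called with or without that library.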

How the results depend on the processing

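No member was called in bulk under any of the 59 settings, and of 379 single member values under alternatives 0 changed their verdict, while 35 uncalled ones changed sign. The replicate block moved calls over all NPC genes from 29 up and 3 down to 93 up and 43 down, with 0 members called, and gave 3.90 for MMERVK10C-int (adjusted p = 9.03e-07). In Trim28-flox, where 1 pair shares only a number (r 0.583), the replicate block called 0 members, with 5 genes up and 15 down against 2 and 5, and gave 0.01 for MMERVK10C-int (the blocks for subfamilies were added after the data were seen). With gene library sizes the Cas9-GFP change of MMERVK10C-int was 0.76. In nuclei the members called were 1, with 0 by DESeq2 and 0 to 2 when single animals were left out, and 5 of 160 single values changed their verdict. These were Eif2ak2 in excitatory neuron-like nuclei (without KO 60, without KO 73, DESeq2) and Irf3 in inhibitory neuron-like nuclei (without control 64 or 65). Leaving out the lone control of a Cas9 line gives no comparison. With 2 animals per group, or 1 control, only large changes of low-count sensors could be called, and the cause of each change above was not tested.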
